A study of Mus musculus with 2 samples.

Results

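Proliferating microglia of the sodium iodate retina were 326 of the 740 cells that passed a C1q gate in the NaIO3 library, or 44.1% (40.4 to 47.7, exact binomial interval), and 326 of the 15988 barcodes of the series. They were chosen by their own transcripts. A cell entered the gate with at least 3000 UMIs (unique molecular identifiers, 1 per captured transcript), at most 15% of UMIs from mitochondrial genes, at least 0.3% of UMIs from C1qa, C1qb and C1qc, and fewer than 3 UMIs of Nkg7, Xcl1 and Gzma, which mark natural killer cells. It counted as proliferating with at least 5 UMIs in all of Mki67, Top2a, Cdk1, Ccnb2, Birc5 and Cenpf, called here the 6 cycle genes. The 312 cells of the same gate with at most 1 of these UMIs served as the comparison and are called non-cycling, and the 102 cells with 2 to 4 stood between them.

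The study compared NaIO3 with PBS in mouse retina by droplet single-cell RNA sequencing (10x). Sodium iodate poisons the retinal pigment epithelium, the cell layer that supports photoreceptors, and photoreceptors are lost afterwards. For NaIO3, retinas of 6 mice were pooled into 1 library, and the mice had been given 20 mg/kg into a vein and killed on day 7. For PBS, retinas of another 6 mice, given phosphate-buffered saline alone in equal volume, were pooled into 1 library, which held 7 cells that passed the gate. The deposited name of the NaIO3 counts holds C57, a short form of a mouse strain name. No fuller strain name, sex or age is given in the sources used here, and pooling leaves no values per mouse. Both libraries carry the label CD11b+ microglia, yet their protocol names CD11b beads for the NaIO3 cells alone, so a difference in cell numbers between the libraries cannot be told apart from bead selection. Every ratio below was therefore taken within the NaIO3 library, and values of the 7 PBS cells are set beside some of them as a description. With 1 library per group no test of a difference was possible, no p-value is given, and the 95% intervals take in counting error alone.

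Microglia are the resident phagocytes of the retina, and in the healthy adult tissue they divide rarely. After photoreceptor damage they multiply and gather where cells are dying. A dividing cell copies its DNA in S phase, when the MCM helicase, the clamp PCNA and the enzymes of nucleotide synthesis are made, and builds the spindle, kinetochores and cleavage furrow in G2 and M phase. The genes of G2 and M phase are known for promoters that combine CCAAT boxes with a cell cycle homology region (CHR), which the DREAM and B-MYB complexes bind, and those of S phase for E2F sites.

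The promoters of 5 cycle genes are printed here to show these letters beside the values that follow. They are Mki67, the commonest marker of proliferation, and the members of the mitosis and of the DNA replication lists with the highest ratios that had a window in the table, Plk1 and Bub1 and then Pclaf and Mcm10. Each window runs 5′ to 3′ on the strand of the gene from 250 bases before to 50 bases after the start, from RefSeq on GRCm38.p6. Capitals mark the CHR, searched as the letters TTTGAA and also as the letters TTCGAA, the CCAAT box, searched as its name, and the E2F site, searched as the letters TTTGGCG and also as the letters TTTCGCG. Both strands were searched, and no printed matches overlapped. The windows lie at chr7:135716330-135716629 on the minus strand for Mki67, chr7:122159185-122159484 on the plus strand for Plk1, chr2:127831810-127832109 on the minus strand for Bub1, chr9:65890073-65890372 on the plus strand for Pclaf and chr2:5012742-5013041 on the minus strand for Mcm10.
Mki67: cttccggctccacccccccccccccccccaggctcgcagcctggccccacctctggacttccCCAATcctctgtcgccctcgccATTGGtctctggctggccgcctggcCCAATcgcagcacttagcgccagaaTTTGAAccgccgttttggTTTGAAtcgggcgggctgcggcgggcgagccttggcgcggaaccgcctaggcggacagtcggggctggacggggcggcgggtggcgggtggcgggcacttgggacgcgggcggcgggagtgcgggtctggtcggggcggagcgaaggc
Plk1: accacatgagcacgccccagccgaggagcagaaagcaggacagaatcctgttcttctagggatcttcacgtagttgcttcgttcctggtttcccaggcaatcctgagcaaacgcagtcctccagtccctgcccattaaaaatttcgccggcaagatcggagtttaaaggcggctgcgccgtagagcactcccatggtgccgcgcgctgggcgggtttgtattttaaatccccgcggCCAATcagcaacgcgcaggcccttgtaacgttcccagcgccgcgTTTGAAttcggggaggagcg
Bub1: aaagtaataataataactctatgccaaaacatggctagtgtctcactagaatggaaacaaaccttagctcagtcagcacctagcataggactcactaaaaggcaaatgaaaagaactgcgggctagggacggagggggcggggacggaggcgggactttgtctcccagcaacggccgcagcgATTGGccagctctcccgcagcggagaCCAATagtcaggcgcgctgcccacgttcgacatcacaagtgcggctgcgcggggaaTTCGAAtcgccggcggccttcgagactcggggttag
Pclaf: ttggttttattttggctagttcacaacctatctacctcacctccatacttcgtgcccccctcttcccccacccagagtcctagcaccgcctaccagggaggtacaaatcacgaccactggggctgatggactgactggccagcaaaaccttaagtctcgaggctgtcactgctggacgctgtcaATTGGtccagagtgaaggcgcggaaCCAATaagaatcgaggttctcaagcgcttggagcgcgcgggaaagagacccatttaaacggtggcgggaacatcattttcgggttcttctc
Mcm10: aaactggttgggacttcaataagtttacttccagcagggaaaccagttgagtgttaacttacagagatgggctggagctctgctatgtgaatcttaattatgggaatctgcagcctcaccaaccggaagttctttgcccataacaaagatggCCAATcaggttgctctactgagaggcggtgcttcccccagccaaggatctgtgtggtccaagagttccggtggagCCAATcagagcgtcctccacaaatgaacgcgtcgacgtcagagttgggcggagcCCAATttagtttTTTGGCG

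Mki67 had 3 CCAAT boxes, which began 188, 166 and 141 bases before the start, and then 2 CHRs. Plk1 had 1 CCAAT box ahead of 1 CHR, and Bub1 had 2 CCAAT boxes ahead of 1 CHR. Pclaf had 2 CCAAT boxes and neither of the other motifs, and Mcm10 had 3 CCAAT boxes and 1 E2F site. Over the mitosis list a CHR was found in 46 of 63 windows of 56 genes (73%), against 14.3% of the 6836 windows of the genes measured well enough here and 19.2% of all 32851 windows. A CHR together with a CCAAT box stood in 35 of these 63 windows (55.6%), against 5.82% and 7.52%. Over the DNA replication list a CHR was found in 11 of 46 windows of 37 genes (23.9%) and an E2F site in 17 (37%), and an E2F site in 4 mitosis windows (6.35%), against 4.59% and 2.37%. A match describes these letters in the window and is not a binding site.

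The values that chose the cells are given here as a description. Mki67, Top2a, Cdk1, Birc5 and C1qa, the markers of the class, had a UMI in 293, 281, 238, 286 and 326 of the 326 proliferating cells. The cells carried a median of 21 UMIs of the 6 cycle genes (5 to 274). All 6 genes were detected in 126 cells (38.7%), 5 of them in 65, 4 in 72, 3 in 45 and 2 in 18, and no cell qualified through 1 gene. Summed over cells, Top2a, the topoisomerase that untangles replicated DNA, stood at 642 CPM (UMIs scaled to the total of the class) in proliferating cells and 6.48 CPM in non-cycling cells. Per cell its lowest value was 0 in both classes, its median 488 and 0 CPM, and its highest 2774 and 275 CPM. Mki67 had a median of 322 CPM per cell and a highest value of 2428 CPM in proliferating cells, against 0 and 296 CPM in non-cycling cells. Cenpf, a kinetochore protein, stood at 187 CPM in proliferating cells and at 1.08 CPM (4 UMIs) in non-cycling cells.

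**Figure D1:**
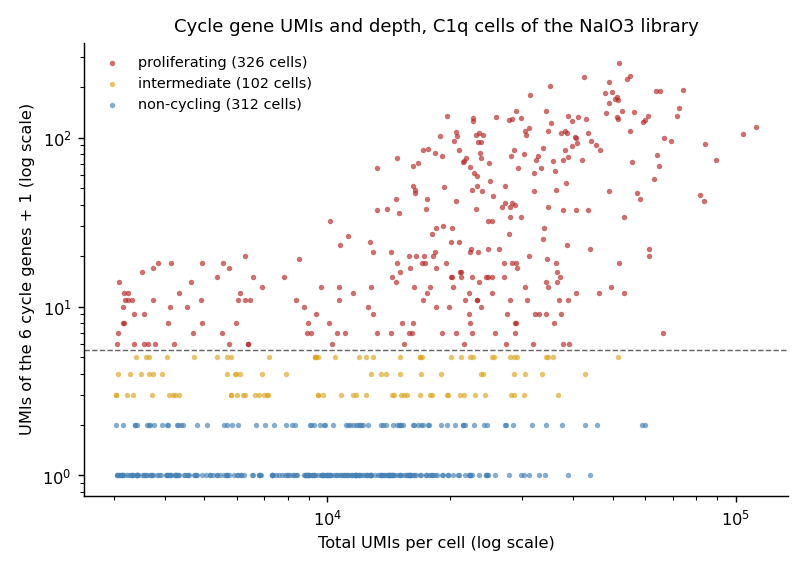
UMIs of the 6 cycle genes plus 1 (vertical, log scale) against total UMIs (horizontal, log scale) for the 740 C1q cells of the NaIO3 library, 1 point per cell, in red for 326 proliferating, gold for 102 intermediate and blue for 312 non-cycling cells. The dashed line is the limit of 5 UMIs; proliferating cells span 3054 to 112347 total UMIs, and the 38 of them under 6000 carry 5 to 17 cycle UMIs.

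The cells were also deeper. Proliferating cells held a median of 23477 UMIs (quartiles 14884 and 36505) and 4969 genes, against 10087 UMIs (5164 and 15106) and 3141 genes in non-cycling cells, as the plot of cycle gene UMIs against depth shows. The limit is a fixed number of UMIs, so a deeper cell reaches it more easily. The 33 cells just inside it, with 5 or 6 cycle UMIs, had a median of 486 CPM of the 6 genes, and the 58 cells just outside it, with 3 or 4, had 287 CPM. With every cell thinned to 3000 UMIs, 81.3% of proliferating and 29.4% of intermediate cells still had 2 or more cycle UMIs. Non-cycling cells hold at most 1 by rule, so their share of 0% was fixed in advance. At least 1 cycle UMI was left in 92.3% of proliferating and 8.65% of non-cycling cells. These shares come from the genes that chose the cells and are a description. Rod cells, which do not divide, served as the background for free RNA, and of 301 rods of the NaIO3 library 1.66% had 1 or more and 0% had 2 or more at the same depth. Without thinning 9 of these rods, at a median of 3992 UMIs, had a cycle UMI and none had 5.

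Scrublet, a doublet caller, marked 172 of 9441 NaIO3 cells (1.82%), among them 2 proliferating and 22 non-cycling cells. The median doublet score was 0.0911 in proliferating and 0.0775 in non-cycling cells. The part of doublets in the depth of proliferating cells was not tested further. The mitochondrial share was alike, with medians of 2.41% and 2.37%. The libraries shared 24 barcodes, 1 of them of a proliferating cell.

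None of the 7 PBS cells of the gate was proliferating, which allows a share of up to 42.9% (3 of 7; 41.0% by the exact interval). Of these, 6 had 0 and 1 had 1 cycle UMI, at a median of 6023 UMIs. Together the 7 held 42275 UMIs, so that 1 UMI of theirs is worth 23.7 CPM. Whether microglia divided without NaIO3 was therefore not detectable at this depth.

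Another 116 NaIO3 cells over the C1q limit were left out because they held 3 or more UMIs of Nkg7, Xcl1 and Gzma, and 104 of them had 5 or more cycle UMIs. Their median was 50147 UMIs. The 3 natural killer genes, by which they were left out, stood at 1485 CPM, against 1.69 CPM in proliferating and 1.35 CPM in non-cycling cells. The T cell genes Cd3d, Cd3e, Cd3g and Trac, which the gate did not use, stood at 204 CPM, against 10.7 and 3.51 CPM. With those cells kept, the proliferating share was 50.2%. A further 87 NaIO3 cells within the same depth and mitochondrial limits had 5 or more cycle UMIs but too little C1q. Of these, 43 had fewer than 3 natural killer UMIs.

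The cells carried genes of microglia. C1qa, the first chain of the complement recogniser C1q, stood at 3539 CPM in proliferating and 4180 CPM in non-cycling cells, and the gate chose for it. Cx3cr1, the fractalkine receptor, stood at 1084 and 1042 CPM, a ratio of 1.04 (1.0 to 1.08). Tmem119, a surface protein of resident microglia, stood at 240 and 200 CPM, a ratio of 1.2 (1.10 to 1.31), and was found after thinning in 44.5% of proliferating cells (39 to 50.1), 36.9% of non-cycling cells (31.5 to 42.5) and 0% of rods. P2ry12, the purine receptor of resting microglia, stood at 50.6 and 57 CPM, and the 7 PBS cells held 1396 CPM (59 UMIs). Sall1, a transcription factor of resident microglia, was found after thinning in 0.613% of proliferating and 1.28% of non-cycling cells.

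Genes of macrophages and monocytes were present in both classes. Of the 15 listed, 8 passed 20 CPM. Of these, 2 were at least 1.5 times higher in proliferating cells and 4 at least 1.5 times lower. Over all genes past 20 CPM the shares were 8.79% and 8.09%. The sum over all 15 was 1337 CPM in proliferating cells, 1606 CPM in non-cycling cells, 0 in the 7 PBS cells and 8.76 CPM in NaIO3 rods. Ccr2, the receptor that calls monocytes into tissue, stood at 108 and 107 CPM and had a UMI after thinning in 21.5% of proliferating cells (17.1 to 26.3), 16.7% of non-cycling cells (12.7 to 21.3) and 0% of rods. Ms4a7, found in recruited and border macrophages, was lower in proliferating cells, at 407 against 829 CPM, a ratio of 0.492 (0.468 to 0.516). So was Ly6c2 of classical monocytes, at 43.8 against 110 CPM. For Ly6c2 3 cells held 37.4% of non-cycling UMIs, and its log2 ratio ran from -1.65 to -0.33 over the alternatives run. Fn1, the matrix protein fibronectin, was higher, at 378 against 139 CPM, a ratio of 2.71 (2.47 to 2.98). Plac8 was higher at 107 against 45.4 CPM. For Fn1 and Plac8 3 cells held 34.9% and 43.5% of non-cycling UMIs. Whether each cell was a resident microglial cell or a recruited macrophage was not tested, and the name microglia here stands for the C1q gate.

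Markers of other immune cells ranged from near 0 to well above it. Neutrophil markers summed to 0.563 CPM in proliferating and 0.810 CPM in non-cycling cells, with 5 of 6 at 0 UMIs in each class. All 12 T and NK markers stayed under 20 CPM and summed to 34.3 and 18.9 CPM. The dendritic markers summed to 159 and 103 CPM, 3 of 10 passing 20 CPM, and the B cell markers to 171 and 176 CPM, nearly all of it Ighm. Ighm, the heavy chain of IgM, stood at 162 and 160 CPM, a ratio of 1.01 (0.921 to 1.12), and had a UMI after thinning in 35.3% of proliferating cells (30.1 to 40.7), 33.0% of non-cycling cells (27.8 to 38.5) and 0% of rods, against 73.9%, 51.9% and 0.332% without thinning. Its part in the results was not tested.

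Markers of retinal cells differed between the classes as well. All 10 rod markers were lower in proliferating cells, and summed to 803 CPM there, 2763 CPM in non-cycling cells and 61401 CPM in NaIO3 rods. Müller markers summed to 366 and 892 CPM, cone markers to 239 and 424 CPM, bipolar markers to 94.6 and 198 CPM, and astrocyte markers to 9.0 and 160 CPM. Of the cone sum, Gngt2 made up 230 and 331 CPM, against 24.4 CPM in NaIO3 rods. It had a UMI in 309 proliferating and 265 non-cycling cells. Of the Müller sum, Glul made up 209 and 347 CPM, with a UMI in 278 and 222 cells. Whether the C1q cells made the Gngt2 and Glul RNA themselves was not tested. Endothelial and pericyte markers summed to 90.1 and 143 CPM, amacrine markers to 4.39 and 7.56 CPM, and pigment epithelium markers to 1.80 and 7.56 CPM. More than 0.1% retinal RNA was held by 59 proliferating and 123 non-cycling cells. The part of this RNA in the gene differences below was not tested, and counts without these cells are given where they move.

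Across all genes the classes differed in both directions. Of 6710 genes at 20 CPM or more in either class, 590 were at least 1.5 times higher in proliferating cells (8.79%) and 543 at least 1.5 times lower (8.09%), and the median log2 ratio was 0.01. At 2 times, 302 were higher (4.50%) and 259 lower (3.86%). The 6 cycle genes took 0.180% of the UMIs of proliferating cells. Of the genes past 1.5 times 52.1% were higher, and 65% with TMM scaling and 66.2% with median-of-ratios scaling. Without the cells rich in retinal RNA, 651 were higher and 288 lower. The cells were chosen by cycle genes in this same contrast, so the counts below describe them and support nothing further. In what follows a gene is called higher or lower at 1.5 times.

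Genes of mitosis and cytokinesis had the highest median ratio of the 21 lists plotted. The list, which leaves out the 6 cycle genes, had 62 members past 20 CPM, of which 61 were higher and none lower, with a median log2 ratio of 4.25. Summed, they stood at 5266 CPM in proliferating cells and 572 CPM in non-cycling cells, a ratio of 9.21 (8.82 to 9.63). Per cell the median was 5033 CPM (quartiles 2176 and 7778) in proliferating and 466 CPM (310 and 717) in non-cycling cells, so the middle ranges of the classes did not overlap.

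Plk1, the kinase that drives entry into mitosis, stood at 76.3 CPM in proliferating cells and 0.540 CPM (2 UMIs) in non-cycling cells, a ratio of 141 (38.9 to 1168). Its median per cell was 38.5 and 0 CPM. Bub1, a kinase of the spindle checkpoint, had 1 UMI in non-cycling cells and a ratio of 130 (23.1 to 5133). Both promoters were shown above with a CHR. Kif23, a kinesin of the midbody, stood at 84.2 CPM and 0.810 CPM (3 UMIs), a ratio of 104 (35.4 to 505), and Kif11, the kinesin that pushes the spindle poles apart, at 101 and 1.35 CPM, a ratio of 75 (32.0 to 231). Aspm, which organises spindle poles, stood at 53 CPM with 0 UMIs in non-cycling cells, which makes it at least 65.4-fold higher against a floor of 3 counts over the class. Pttg1, the securin that holds back sister separation, was the 1 member that did not differ by 1.5 times, at 62.2 and 63.8 CPM.

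Chromatin proteins followed the same direction. Of 34 members 32 were higher and none lower, and the sum was 10560 CPM in proliferating and 3379 CPM in non-cycling cells, a ratio of 3.13 (3.07 to 3.18). Hist1h1b, a linker histone, stood at 392 and 4.32 CPM, a ratio of 90.6 (55.7 to 159). The core histones Hist1h2ap and Hist1h2ae had ratios of 25.1 and 18.8, and H2afx, the variant marked at DNA breaks, 13.1. Most replication-dependent histone messages lack a poly(A) tail, and near-identical histone genes can share reads, so their single values are uncertain. Outside the lists Hist1h3c, Hist1h2ab and Hist2h2ac were highest, with ratios of 121, 45.4 and 9.26. They were followed by Tubb4b (4.41), a tubulin, Hjurp (3.81), which loads the centromeric histone, Rangap1 (3.37), Hist1h1c (3.16), Ccdc34 (2.96), and the tubulins Tuba1b (2.81) and Tubb5 (2.72). Tuba1b was broad, with a median per cell of 1316 CPM in proliferating and 446 CPM in non-cycling cells.

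**Figure D2:**
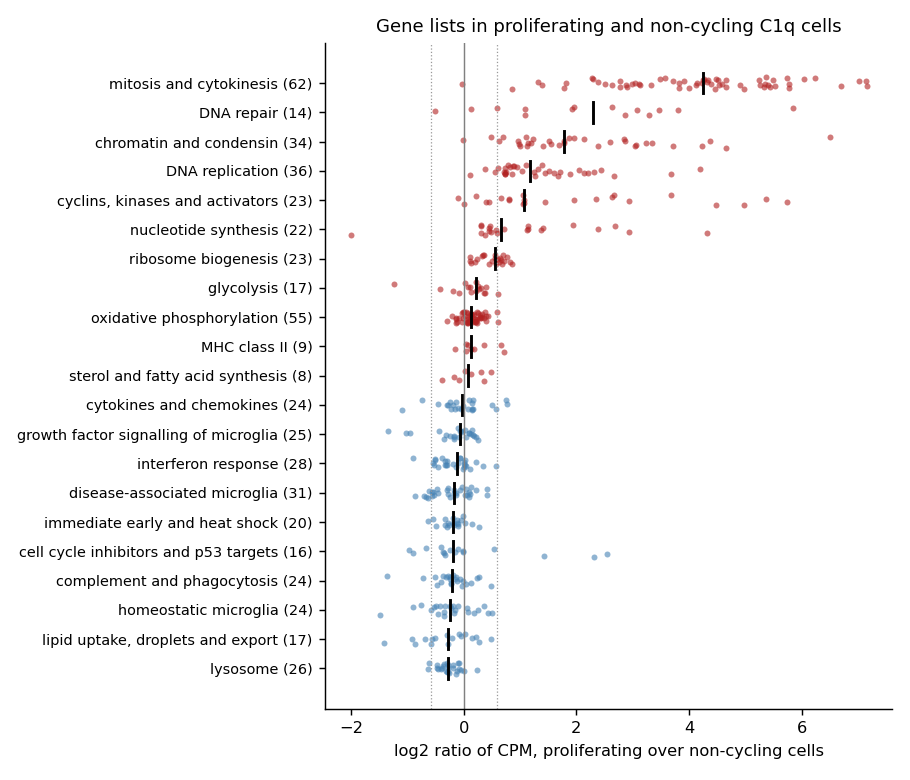
Log2 ratio of CPM, proliferating over non-cycling cells (horizontal), for every member past 20 CPM of 21 gene lists, 1 point per gene and the number of genes after each name; black bars are medians, dotted lines mark 1.5 times, and red and blue are lists with a median above and below 0. Mitosis stands at the top with a median of 4.25, and the lists of lysosome, lipid handling and microglial state lie a little below 0.

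Genes of DNA replication differed less. Of 36 members past 20 CPM, 33 were higher and none lower, with a median log2 ratio of 1.17, and their sum was 2596 CPM in proliferating and 1080 CPM in non-cycling cells, a ratio of 2.41 (2.33 to 2.49). The per-cell quartiles overlapped, at 1219 and 3816 CPM in proliferating and 500 and 1482 CPM in non-cycling cells. Pclaf, the PCNA-associated factor, stood at 333 and 18.1 CPM, a ratio of 18.4 (14.4 to 23.8), and its median per cell was 283 and 0 CPM. It was found after thinning in 56.4% of proliferating cells, 8.33% of non-cycling cells and 0.664% of rods. Mcm10, an origin-firing factor, had a ratio of 12.8 (6.10 to 32.2). Clspn, of the replication checkpoint, had 6.32, Dbf4, the partner of CDC7 kinase, 5.0, and Uhrf1, which carries methylation marks to new DNA, 4.61. Pcna itself stood at 162 and 89.4 CPM, a ratio of 1.81 (1.6 to 2.05). It was found after thinning in 31.9% of proliferating cells, 23.1% of non-cycling cells and 25.9% of rods. Whether the rods made this RNA or held it as free RNA was not tested. The 6 MCM helicase genes Mcm2 to Mcm7 had ratios between 1.47 and 2.84.

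Enzymes that supply nucleotides were higher too. Of 22 members 12 were higher and 1 lower, and the sum was 1617 CPM in proliferating and 892 CPM in non-cycling cells. Rrm2 and Rrm1, the subunits of ribonucleotide reductase, stood at 70.0 against 3.51 CPM and at 135 against 25.9 CPM, ratios of 19.9 (11.6 to 37.6) and 5.19 (4.22 to 6.46). Tk1, thymidine kinase, and Tyms, thymidylate synthase, had ratios of 7.63 and 6.40. The lower member was Impdh1, an enzyme of guanine nucleotide synthesis, with a ratio of 0.251 (0.190 to 0.328). The list summed to 1287 CPM in NaIO3 rods, and the part of rod RNA in the Impdh1 ratio was not tested. Of 14 DNA repair genes 12 were higher, among them Rad51ap1, of homologous recombination, with a ratio of 8.42, and Topbp1, of the replication stress checkpoint, with 2.14.

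Most cyclins and their partners were higher. Of 23 cyclins, kinases and activators 18 were higher and none lower, Ccnb1 and Ccna2 being counted in the mitosis list as well. Ccnb1, the mitotic cyclin, stood at 86.1 CPM in proliferating and 1.62 CPM in non-cycling cells, a ratio of 53.1 (24.3 to 145), and Ccna2, the cyclin of S and G2 phase, at 100 and 2.43 CPM, a ratio of 41.3 (21.7 to 90.7). Cks2 and Cks1b, small partners of the cyclin-dependent kinases, had ratios of 6.35 and 6.22. Ccne2 and Ccne1, the cyclins of S phase entry, had 7.62 (5.05 to 12) and 3.9 (2.51 to 6.36). The D cyclins of G1 did not differ by 1.5 times: Ccnd1 stood at 302 and 324 CPM, Ccnd2 at 242 and 241 CPM and Ccnd3 at 37.7 and 28.6 CPM.

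Among 16 inhibitors of the cycle and p53 targets 3 were higher and 3 lower, beside 8.79% and 8.09% of all genes. The higher ones were Cdkn2d (p19INK4d), at 59.6 and 10.3 CPM, a ratio of 5.81 (4.18 to 8.30), Cdkn2c (p18INK4c), with 5.0, and Rbl1, the pocket protein p107, with 2.68. The lower ones were Sesn1, a p53 target of the stress response, with 0.537, Gadd45b with 0.508 and Gadd45g with 0.627. Trp53 itself had a ratio of 1.46 and Ccng1, a p53 target, 0.760. Cdkn1a (p21) stood at 315 and 395 CPM, a ratio of 0.797 (0.748 to 0.850).

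Proliferating cells differed in their balance of mitosis and replication RNA. By these 2 lists 236 of them held at least as many mitosis as replication UMIs and 90 held fewer, with 73 cells within 1.5 times of equal. The split uses these lists, so their values in it are a description, and no phase was assigned to a cell. The mitosis-rich cells had a median of 38 cycle UMIs and 22814 UMIs in all, and the replication-rich cells 13.5 and 27342. Most of the 6 cycle genes are known to peak in G2 and M phase.

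**Figure D3:**
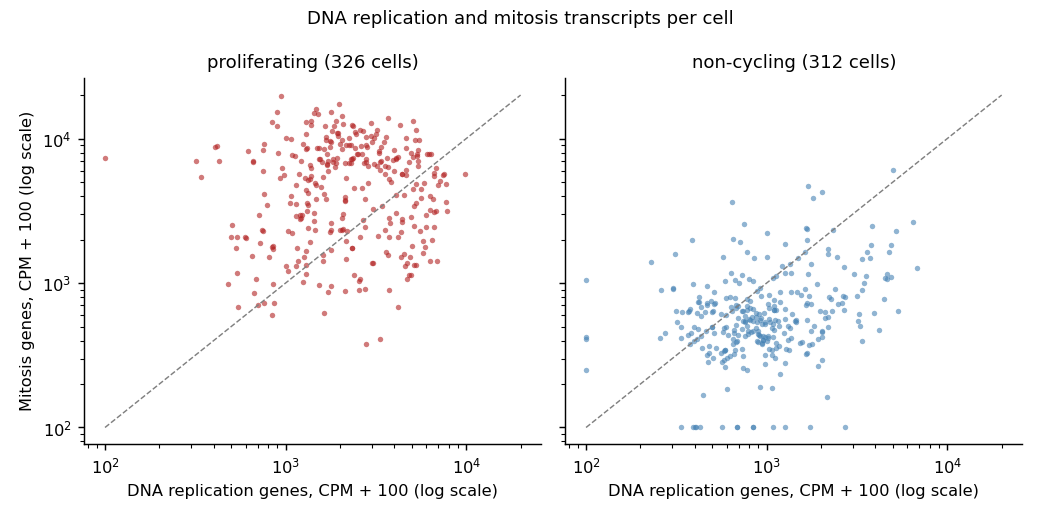
Summed CPM plus 100 of mitosis genes (vertical) against DNA replication genes (horizontal), both on log scales, 1 point per cell, proliferating cells left and non-cycling cells right, with a dashed line where both are equal. Of the proliferating cells 236 lie on or above the line and 90 below it, and non-cycling cells gather at low values of both with a tail towards high replication.

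For members of these lists the split itself favours a direction, so they are given as levels. Ube2c, which hands ubiquitin to mitotic cyclins, stood at 306 CPM in mitosis-rich and 14.8 CPM in replication-rich cells, and Ccnb1 at 119 and 8.37 CPM. Plk1 stood at 103 and 12.9 CPM, and Cdc20, the activator of cyclin destruction, at 102 and 13.3 CPM. On the other side Cdc6, which licenses origins, stood at 4.95 CPM in mitosis-rich and 48.0 CPM in replication-rich cells, and Mcm2 at 25.2 and 95.5 CPM. Ccne2, which is in neither list, stood at 19.2 and 121 CPM. Lists that the split did not use gave ratios near 1 for microglial state: the homeostatic list had a ratio of 0.986 (0.972 to 1.0), mitosis-rich over replication-rich, and the disease-associated list 0.963 (0.956 to 0.970).

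Some cells called non-cycling also carried replication RNA. Their replication sum had a median of 819 CPM per cell and reached 6723 CPM, and in the plot of the 2 lists a tail of them overlapped replication-rich proliferating cells. By number of cycle UMIs, replication genes stood at 1080 CPM with 0 or 1 cycle UMI, 1881 CPM with 2 to 4, 2455 CPM with 5 to 14, 2781 CPM with 15 to 39 and 2594 CPM with 40 or more, so the last step was below the one before it. Mitosis genes stood at 572, 1011, 1830, 3374 and 7321 CPM over the same steps. Median depth climbed as well, at 10087, 11884, 14997, 21031 and 34715 UMIs.

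Genes of ribosome building were higher by modest ratios, and few of energy supply passed 1.5 times. Of 23 ribosome biogenesis genes 10 were higher and none lower, beside 8.79% of all genes higher, and all 23 lay above 1, with a sum of 3432 CPM in proliferating and 2375 CPM in non-cycling cells, a ratio of 1.45 (1.41 to 1.48). Dkc1 and Nhp2, of the particles that modify ribosomal RNA, had ratios of 1.80 and 1.77, and Nop56 and Nolc1, nucleolar proteins, 1.71 and 1.65. Oxidative phosphorylation had 2 of 55 members higher, Cyc1 and Cycs, the cytochromes of electron transport, with ratios of 1.52 and 1.51, and a list ratio of 1.10 (1.09 to 1.11). That share, like the 1 of 17 in glycolysis, was below the 8.79% of all genes. Glycolysis had 1 of 17 higher and 1 lower, with Gapdh at 1.31, Pgam1 at 1.30, Pgk1 at 1.29 and the lower member Hk1, also abundant in rods, at 0.425. Of 8 sterol and fatty acid synthesis genes none passed 1.5 times; Ebp had 1.24, Acly 0.948 and Scd2 0.771.

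Homeostatic genes of microglia were slightly lower as a group. Of 24 members none was higher and 3 were lower, beside 8.09% of all genes lower. The median log2 ratio was -0.24 against 0.01 over all genes. The sum was 10048 CPM in proliferating and 11984 CPM in non-cycling cells, a ratio of 0.839 (0.829 to 0.848). The 7 PBS cells held 55920 CPM. The lower members were Maf, a transcription factor of tissue macrophages, at 216 and 403 CPM, a ratio of 0.535 (0.5 to 0.573), Mertk, a receptor for dead cells, with 0.589 (0.517 to 0.672), and Sparc, a matrix protein, with 0.358, although 3 cells held 52.1% of the Sparc UMIs of non-cycling cells and its log2 ratio was 0.0659 at a C1q limit of 1%. Ltc4s, an enzyme of leukotriene synthesis, had 0.670.

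Genes of disease-associated microglia, the state described around amyloid plaques and dying photoreceptors, were present in both classes, and their sum was lower in proliferating cells. None of 31 was higher, 5 were lower and 26 lay between, 10 of the 31 above 1, beside 8.09% of all genes lower. The sum was 39410 CPM in proliferating and 55854 CPM in non-cycling cells, a ratio of 0.706 (0.702 to 0.709). Apoe, the lipid carrier, took the largest part of that sum, at 13982 and 25563 CPM, a ratio of 0.547 (0.542 to 0.552), and without it the list ratio was 0.839 (0.833 to 0.846). Its median per cell was 10940 CPM (quartiles 5296 and 20518) in proliferating and 20399 CPM (7709 and 37286) in non-cycling cells, so the ranges overlapped. The other lower members were Lyz2, lysozyme, with a ratio of 0.615, Timp2, an inhibitor of matrix proteases, with 0.627, and the cathepsins Ctsl and Ctsb with 0.643 and 0.650. Spp1, osteopontin, stood at 2999 and 2237 CPM, a ratio of 1.34 (1.31 to 1.37), Gpnmb at 606 and 664 CPM, and Trem2, the lipid-sensing receptor of this state, at 440 and 639 CPM.

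Some lipid genes were lower as well. Of 17 genes of lipid uptake, droplets and export, Apoe included, 4 were lower and none higher, beside 8.09% of all genes lower. Without Apoe the list sum was 1903 against 2367 CPM, a ratio of 0.804 (0.783 to 0.825). Abca1 and Abcg1, which pump cholesterol out of the cell, stood at 179 against 337 CPM and 83.8 against 135 CPM, ratios of 0.532 (0.494 to 0.573) and 0.619 (0.552 to 0.695). Fabp5, a fatty acid chaperone, had 0.677, with 51.2% of its non-cycling UMIs in 3 cells and log2 ratios from -1.76 to 0.66 over the alternatives run. Of 26 lysosomal genes 24 lay below 1 but 2 were lower by 1.5 times, both cathepsins named above, and Ctss and Hexa had 0.724 each. That count is near the 8.09% of all genes that were lower, as is the next. Of 24 complement and phagocytosis genes 2 were lower, the complement protein C4b with 0.390 and Mfge8, which bridges phagocytes to dying cells, with 0.604, while Stab1 and C3ar1, a scavenger and a complement receptor, had 0.704 and 0.721.

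**Figure D4:**
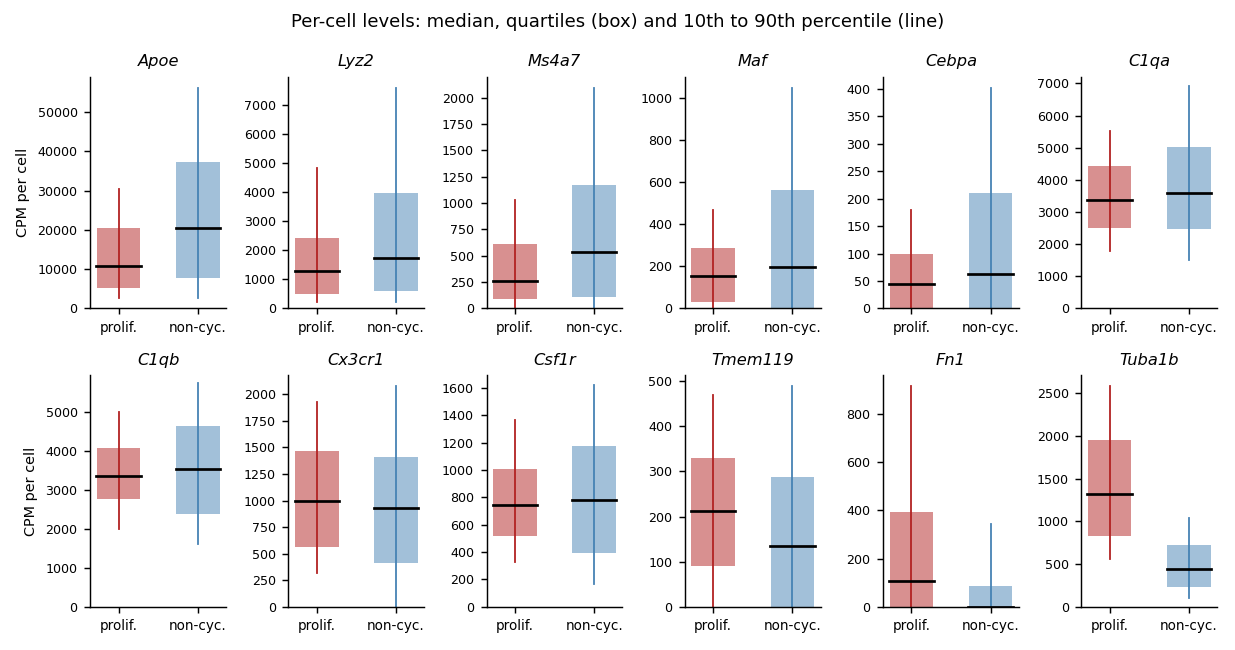
CPM per cell of 12 genes (vertical, from 0 in each panel) in 326 proliferating (left, red) and 312 non-cycling cells (right, blue); bars mark medians, boxes quartiles and lines the 10th to the 90th percentile. The medians of Apoe, Lyz2 and Ms4a7 sit lower in proliferating cells, those of Fn1 and Tuba1b higher, and C1qa, C1qb, Cx3cr1 and Csf1r overlap closely.

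Of the genes named in the title of the study none differed by 1.5 times in CPM. After thinning, the shares of cells with an Nlrp3 UMI and with an Il1b UMI were higher among proliferating cells, and the Il1b intervals overlapped. Cd36, the scavenger receptor for oxidised lipid, stood at 135 CPM in proliferating and 96.4 CPM in non-cycling cells, a ratio of 1.40 (1.24 to 1.58), and had a UMI after thinning in 23.0% of proliferating cells (18.5 to 28), 22.4% of non-cycling cells (17.9 to 27.5) and 0% of rods. Without thinning the shares were 63.5%, 38.5% and 0.332%. Nlrp3, the inflammasome sensor, stood at 43.9 and 39.4 CPM, a ratio of 1.11 (0.918 to 1.36), and was found after thinning in 13.5% (9.98 to 17.7) and 6.41% (3.96 to 9.73) of cells. Il1b, the cytokine it matures, stood at 187 and 192 CPM, a ratio of 0.974 (0.891 to 1.06), and was found in 23.3% (18.8 to 28.3) and 15.7% (11.9 to 20.2).

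Cytokines, interferon and antigen presentation showed few differences past 1.5 times. Over all genes 8.79% were higher and 8.09% lower, so the cytokine counts below are near those shares and the interferon counts under them. Of 24 cytokines and chemokines 2 were higher, Cxcl2 with a ratio of 1.70 and Cxcl14 with 1.68, and 2 lower, Ccl8 with 0.468 and Cd83 with 0.602. Among cells from 6000 to under 12000 UMIs the Cxcl2 ratio was 0.404 (0.178 to 0.805), and among those under 6000 it had 0 UMIs in proliferating and 12 in non-cycling cells. For Cxcl2 and Ccl8 3 cells held 34.8% and 48.6% of non-cycling UMIs. Of 28 interferon response genes none was higher and 1 lower, Ifit3b with 0.538, while Cxcl10 had 1.48, Stat2 0.686, Ifit3 0.691 and Ifit2 0.699. For Cxcl10 3 cells held 69.5% of non-cycling UMIs, and its log2 ratio ran from -0.35 to 1.37 over the alternatives. Of 9 MHC class II genes 2 were higher, H2-Oa with 1.64 and H2-DMb2 with 1.59, and the abundant Cd74, H2-Ab1, H2-Eb1 and H2-Aa lay between 0.899 and 1.14. The list ratios were 0.962, 0.955 and 1.01.

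Few genes of growth factor signalling and early response passed 1.5 times, beside 8.79% of all genes higher and 8.09% lower. Of 25 signalling genes 3 were lower and none higher: Igf1r, the receptor for insulin-like growth factor, with 0.393, Csf3r, the receptor for granulocyte colony-stimulating factor, with 0.495, and Cebpa, a myeloid transcription factor, at 71.5 against 138 CPM, a ratio of 0.519 (0.461 to 0.584). Csf1r, the receptor through which microglia receive their survival and division signal, stood at 805 and 860 CPM. Dusp6, Tgfbr2 and Tgfbr1 had 0.786, 0.809 and 0.842. Of 20 immediate early and heat shock genes, which dissociation is known to induce, 1 was lower, Klf4 with 0.645.

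Outside the lists the lowest genes were largely those of glia and rods, or rested on a few cells. Lcn2, Serpina3n and Cp, acute-phase genes of reactive glia, had ratios of 0.0639, 0.0674 and 0.199, and 3 non-cycling cells held 90.3%, 83.4% and 61.5% of their non-cycling UMIs. Gfap and Rgs5, markers of astroglia and pericytes, had 0.0353 and 0.0408, with 90.8% and 96.1% of non-cycling UMIs in 3 cells. At a C1q limit of 1% the log2 ratios of Serpina3n and Rgs5 were 0.32 and 1.15. Bc1 and Mgarp, with 0.287 and 0.298, were followed by Pla2g7 (0.441), Mxd4 (0.447), a MAX partner that opposes MYC, Selenop (0.465), a selenium carrier, Ypel3 (0.506) and Cited2 (0.536). Selenop stood at 267 and 575 CPM, with 10.6% of its non-cycling UMIs in 3 cells and 1.88 CPM in rods.

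Depth differed between the classes, so the ratios were also taken among cells of like depth. In 4 bands of total UMIs (from 3000, 6000, 12000 and 24000 upward) there were 38, 28, 104 and 156 proliferating and 92, 97, 98 and 25 non-cycling cells. The mitosis ratio was 6.72, 8.10, 11.3 and 9.80 from the shallowest to the deepest band, and the replication ratio 1.41, 2.34, 2.39 and 3.10. The disease-associated ratio lay between 0.612 and 0.713, the lipid ratio, most of whose sum is Apoe, between 0.517 and 0.662, and the homeostatic ratio between 0.773 and 0.848. Apoe lay between 0.508 and 0.650 and Maf between 0.563 and 0.583 in all 4 bands. Without Apoe the disease-associated ratio was 0.709, 0.975 (0.947 to 1.0), 0.766 and 0.618 over the bands and the lipid ratio 0.579, 0.632, 0.807 and 0.579. Fn1 was 2.76 (1.84 to 4.17), 1.42 (0.913 to 2.16), 1.81 (1.56 to 2.11) and 2.63 (2.20 to 3.15).

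**Figure D5:**
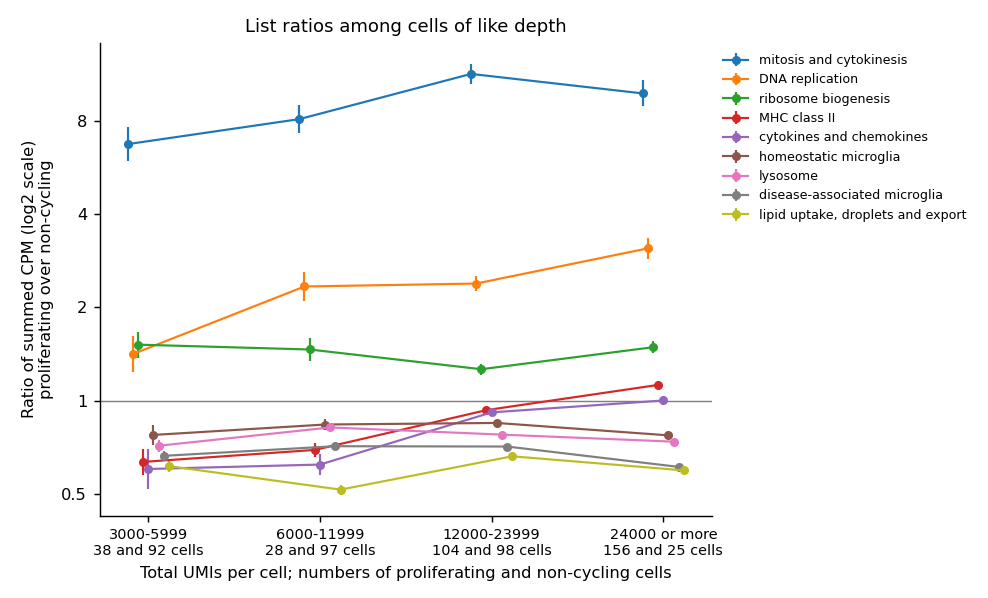
Ratio of summed CPM, proliferating over non-cycling cells (vertical, log2 scale), for 9 gene lists in 4 bands of total UMIs per cell (horizontal), with exact binomial intervals as bars and the numbers of proliferating and non-cycling cells under each band. Mitosis and DNA replication lie above 1 and the disease-associated, lipid, lysosome and homeostatic lists below 1 in every band, while MHC class II and cytokines cross from below 1 to 1 or above.

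A few lists depended on the band. The MHC class II ratio was 0.635 (0.576 to 0.699) in the shallowest band and 1.12 (1.10 to 1.15) in the deepest, and the cytokine ratio 0.602 (0.519 to 0.697) and 1.0 (0.969 to 1.04). The immediate early and heat shock ratio was 0.672 (0.605 to 0.744), 0.690, 0.945 and 1.04 (1.01 to 1.06) from the shallowest to the deepest band. Cd36 was 0.983, 1.12 and 0.975 in the 3 shallower bands and 1.6 (1.27 to 2.05) in the deepest.

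Division was also read from the other side, as the share of the 740 cells with 2 or more cycle UMIs after thinning. It was 41.4% (36.2 to 46.7) of 355 cells with a P2ry12, Tmem119 or Sall1 UMI and 38.4% (33.6 to 43.5) of 385 cells without. It was 44.9% (39.2 to 50.7) with and 36.4% (31.9 to 41.1) without Spp1, but 35.6% (26.4 to 45.8) with and 40.5% (36.7 to 44.5) without Gpnmb, of the same state. It was 41.4% (37.6 to 45.4) with and 30.9% (22.4 to 40.4) without Cx3cr1, where cells without had a median of 6879 UMIs before thinning, and 37.1% (32.8 to 41.7) with and 44.7% (38.7 to 50.9) without Cd74. It was 42.1% and 39.2% for Cd36, 47.1% and 38.2% for Il1b, 41.9% and 39.4% for Ccr2, 40.9% and 34.7% for Csf1r, and 38.2% and 41.2% for Ifit3, Ifit1 or Isg15. It was lower among 63 cells with an Mrc1, Lyve1 or Cd163 UMI, genes of border macrophages, at 23.8% (14 to 36.2), against 41.4% (37.6 to 45.2) of 677 cells without. Ms4a7 gave 36.5% (32.1 to 41.2) of 449 cells with and 45.0% (39.2 to 50.9) of 291 cells without. Depth before thinning differed in either direction between cells with and without a UMI. The medians were 16827 UMIs with and 12946 UMIs without for the first group of genes. They were 13782 and 15040 UMIs for the border macrophage genes.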

How the data were processed

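Single-cell RNA of mouse retina was measured in 1 NaIO3 and 1 PBS library, grouped by the treatment label. The authors deposited unnormalised UMI counts of 31053 genes for each barcode kept by Cell Ranger, of version 3.0.2 per the file headers. The build was mm10, as the submitters' processing notes say, while annotation version and aligner settings are not given in the sources used here. The files hold 9746 NaIO3 and 6242 PBS barcodes, of which 4669 and 2212 had at least 3000 UMIs and at most 15% mitochondrial UMIs.

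Within each class the counts of all cells were added up (8886288 UMIs proliferating, 3701701 UMIs non-cycling) and divided by the class total, so that 1 UMI is worth 0.113 and 0.270 CPM. Ratios are proliferating over non-cycling cells with exact conditional binomial intervals, and intervals of shares are Clopper-Pearson, at 95% like the rest. Molecules of 1 class are not replicates, so the intervals cover counting error only. Genes needed 20 CPM in either class, and a class at 0 UMIs was set to 3 counts. For shares, each cell was thinned to 3000 UMIs without replacement (seed 7); both classes and the rods lose no cell to this. Rods were cells with at least 3% of UMIs from 3 rod markers, Sag and Pdc among them, and under 0.3% from C1q. Scrublet ran with scanpy 1.11.5 on cells of at least 500 UMIs and 300 genes at an expected rate of 6%, and calls were left in.

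Named genes were the 6 cycle genes, the C1q chains, Cd36, Nlrp3 and Il1b, of each list up to 4 members with the largest ratio at 50 CPM or more plus up to 2 the other way, and outside the lists the 10 highest and lowest at 100 CPM or more, without mitochondrial, ribosomal protein, sex-linked and unnamed genes and genes over 5 times higher in rods. Genes named beyond this were chosen after their values were seen. Members and lists were chosen with earlier results of these data known. Promoters came from a RefSeq table on GRCm38.p6, and 56 of 67 mitosis and 37 of 47 replication genes matched it by symbol. Clec7a and Fam64a of the lists are not analysed here, and single values of some other listed genes are not reported here. The ratio code was tested on simulated counts, and that test did not cover the intervals. The alternatives were other limits, scalings (TMM from edgeR 4.0.16 in R 4.3.3, and median of ratios), thinning, bands of depth and doublet removal, run under Python 3.11.15 with numpy 2.4.6, scipy 1.17.1 and pandas 2.3.3. Removal of cells rich in retinal RNA, the gate without its natural killer limit and the list sums without Apoe were added after the data were seen.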

Additional observations from a re-analysis of the deposited data

How the results depend on the processing

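No paired analysis was possible because each group is 1 library and the labels give no replicate numbers. The mitosis, replication, homeostatic and disease-associated ratios kept their side of 1 under every alternative run, over 8.12 to 10.6, 2.23 to 2.81, 0.776 to 0.912 and 0.637 to 0.796; these moves exceed counting error, and their cause was not tested. The proliferating share was 51.9% at 3 or more cycle UMIs, 35.4% at 10 or more, 48.0% at 5000 UMIs, 50.2% without the natural killer limit and 50.4% without cells rich in retinal RNA.

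The 4 ratios, in the order above, were 9.93, 2.59, 0.904 and 0.760 with TMM scaling, which moves the median log2 ratio of all genes to 0.12. They were 10.0, 2.61, 0.912 and 0.767 with median-of-ratios scaling (median 0.13), 8.30, 2.23, 0.876 and 0.736 as means of per-cell CPM, 8.12, 2.24, 0.872 and 0.735 after thinning, and 9.95, 2.81, 0.793 and 0.637 within bands of depth. Against cells with 0 cycle UMIs they were 10.3, 2.60, 0.809 and 0.690. Of these ratios mitosis moved to 10.1 at 10 or more cycle UMIs, 10.6 at 1% C1q, 8.43 without the natural killer limit and 10.0 without cells rich in retinal RNA. The disease-associated ratio moved to 0.691 without doublets, 0.695 at 5% mitochondrial UMIs, 0.796 at 1% C1q, 0.639 without the natural killer limit and 0.677 without cells rich in retinal RNA, and the homeostatic ratio to 0.819 at 5% mitochondrial UMIs and 0.776 without the natural killer limit.

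Of all genes, 903 were higher and 963 lower after thinning, where fewer UMIs were counted, 1660 and 3118 with no limit on low values, where 14080 genes were counted, and 288 were lower without cells rich in retinal RNA. Among named genes past 1.5 times, log2 ratios turned positive for Pcp2 (0.25) within bands of depth, for Sparc (0.0659), Rgs5 (1.15) and Serpina3n (0.32) at 1% C1q, and for Gngt1 (0.0585) and Rgs5 (1.07) without cells rich in retinal RNA. Of the other values of named genes, 1099 moved within counting error and 467 beyond it. Among these, 31 values of 12 genes that had not differed by 1.5 times had the other sign, such as Fabp5 (0.66) and Scd2 (0.49) at 1% C1q, Siglech (0.25) after thinning and Cxcl10 (-0.35) without cells rich in retinal RNA.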
